A study of Homo sapiens with 20 samples.

Results

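The 10 genes described here carry signals of interleukin 6 (IL-6) and other cytokines from the cell surface to the nucleus and switch them off again: the receptor chains IL6R and IL6ST, the kinases JAK1, JAK2 and TYK2, the transcription factors STAT3 and STAT5B, and the inhibitors SOCS1, SOCS3 and CISH. They were taken by name from the 19593 genes of the tables, each represented by the GENCODE transcript that held the most reads over all 20 libraries. The libraries came from MM1.S, an established human multiple myeloma cell line of labelled genotype WT, exposed for 2, 6 or 24 h to 10 nM dCBP-30 or to its solvent, DMSO, with 3 libraries in each of these 6 groups. dCBP-30 recruits the ubiquitin ligase subunit cereblon to the histone acetyltransferases CBP and p300 and so brings about their degradation. All 18 libraries received 4-thiouridine (4sU) for the last 1 h before harvest, and 2 further libraries of the line, with no treatment named, received none. In this assay (SLAM-seq) alkylated 4sU is read as a T-to-C change, so that reads with such a change (T>C reads) come from newly made RNA, total reads measure all RNA of the gene, and the T>C share of reads is here called the labelled share.

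IL-6 binds IL6R, and the complex recruits IL6ST (gp130), the signal-transducing chain that the whole IL-6 cytokine family uses. The receptor-bound kinases JAK1, JAK2 and TYK2 then phosphorylate STAT proteins, of which STAT3 is the main one downstream of gp130, and the STATs enter the nucleus and switch on target genes that include the feedback inhibitors of the SOCS family. IL-6 is a growth and survival factor of plasma cells and of many myelomas.

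Libraries held between 12439665 and 18727385 reads on the transcripts used, of which 4.71% to 8.62% were T>C reads with 4sU and 0.794% and 0.809% without it. Levels are in RPM, the reads of a gene scaled as CPM to library sizes after TMM scaling on total reads, with no TMM factor for the libraries without 4sU. A change was called where edgeR's quasi-likelihood test gave a Benjamini-Hochberg adjusted p under 0.05 over all genes tested and, for T>C and total reads, a difference of more than 2-fold. The labels do not say whether the 3 libraries of a group came from separate cultures, so p-values measure the spread between libraries only. The median gene moved by 0.04, -0.27 and -0.69 (log2) in T>C reads at 2, 6 and 24 h, and this shift became 0.05, 0.04 and -0.03 where libraries were scaled by their T>C reads. Under that scaling 520 genes were higher and 1181 lower in T>C reads at 6 h, against 238 and 1720 with the scaling used here, and 773 were higher and 1491 lower at 24 h, against 220 and 3145. Without TMM factors the median gene rose by 0.58 in total reads at 24 h, against 0.05, with 3686 genes higher and 1061 lower against 1843 and 1972. At 24 h the converted T positions per T>C read, a ratio of 2 deposited columns, were 1.43 to 1.51 with dCBP-30 and 2.46 to 2.51 with DMSO. The part of this difference in the 24 h results for T>C reads and labelled share was not tested. Summed total reads of 10 plasma cell markers lay between 5831 and 7569 RPM in the DMSO libraries and between 621 and 808 RPM after 24 h of dCBP-30. Those of 10 markers of other blood cells, mostly from NCAM1 and CD3E, were 14.4 to 24.5 RPM with DMSO, 15.4 to 19.4 RPM after 2 and 6 h of dCBP-30 and 26.4 to 39.4 RPM after 24 h, where CD3E was called higher (1.29, adjusted p = 0.00175), with CD3D at 0 in every library. The part of these marker differences in the results was not tested. In such bulk libraries fewer cells with a transcript and less of it per cell cannot be told apart.

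Newly made RNA of both receptor chains was lower at every time. Of the 9 genes with enough T>C reads to test, IL6R and IL6ST were called lower at each of the 3 times. Of all 10083 genes tested, 7.14%, 17.1% and 31.2% were called lower after 2, 6 and 24 h. STAT3 at 6 h and JAK2 at 24 h were the only members called higher, where 2.36% and 2.18% of all genes were, and none was at 2 h (1.64%). The median of the 9 genes was -0.65, -0.25 and -0.51 (log2) at the 3 times. SOCS3, with 72 reads in all 20 libraries, was not tested.

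**Figure D1:**
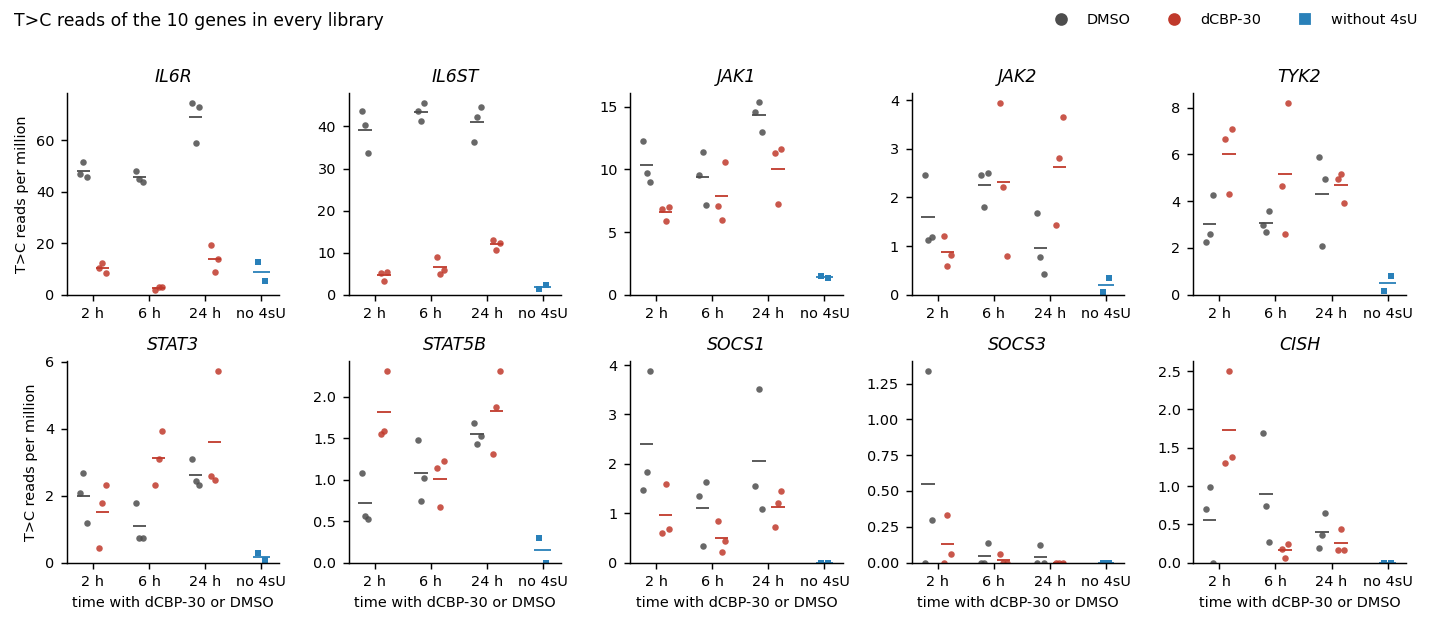
T>C reads in RPM (vertical axes, each from 0) of the 10 genes in every library by time, for DMSO, dCBP-30 and the libraries without 4sU; points are libraries and bars group means. All dCBP-30 points of IL6R (2.60 to 14.1 on average) and IL6ST (4.67 to 12.02) lie below every DMSO point of the same gene, while the other genes lie at 15.4 RPM or less in every library.

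IL6R, the chain that binds IL-6, was read in the final exon of its canonical transcript (4070 bases of 3′ UTR at chr1:154465381-154469450, plus strand, GRCh38). After 2 h its T>C reads were 46.8, 51.8 and 45.9 RPM with DMSO and 10.3, 12.3 and 8.63 RPM with dCBP-30. After 6 h they were 48.0, 45.1 and 43.8 RPM against 1.98, 2.82 and 3.002 RPM, and after 24 h 74.7, 59.0 and 73.1 RPM against 19.3, 8.97 and 13.8 RPM. The groups did not overlap at any time, and the lowest values were those of the 3 libraries treated for 6 h. The differences in T>C reads were -2.21 ± 0.20 (log2, SE; adjusted p = 1.08e-13), -4.13 ± 0.23 (adjusted p = 4.19e-23) and -2.29 ± 0.20 (adjusted p = 6.69e-15), which are 4.62-fold, 17.5-fold and 4.90-fold differences. Scaled by T>C reads, the 24 h value was -1.64 for IL6R and -1.11 for IL6ST, both still called.

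The total reads of IL6R were called lower from 6 h on. At 2 h they were 521, 599 and 621 RPM with DMSO and 457, 535 and 429 RPM with dCBP-30, which overlap, and the difference of -0.29 was not called (95% interval -0.56 to -0.03, adjusted p = 0.278). At 6 h they were 566, 579 and 527 RPM against 40.9, 44.3 and 62.4 RPM, and at 24 h 615, 515 and 545 RPM against 166, 122 and 142 RPM. Total reads thus fell by 3.50 ± 0.15 (adjusted p = 1.44e-15) at 6 h and by 1.96 ± 0.14 (adjusted p = 1.18e-11) at 24 h. With dCBP-30 the group mean was 474 RPM at 2 h, 49.2 RPM at 6 h and 143 RPM at 24 h, so that the mean at 6 h was 0.104 of that at 2 h and the mean at 24 h was 2.91-fold that at 6 h. With DMSO the 3 means stayed between 557 and 581 RPM.

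At 2 h the few T>C reads of IL6R that remained were close to the higher of the 2 backgrounds measured without 4sU. The labelled share at 2 h was 8.34% ± 0.84 (SD, n = 3) with DMSO and 2.25%, 2.31% and 2.01% in the dCBP-30 libraries (95% Wilson intervals 1.88 to 2.68, 2.00 to 2.66 and 1.71 to 2.37). Without 4sU it was 2.11% (1.85 to 2.40) in one library and 1.11% (0.890 to 1.39) in the other. Such intervals cover counting error only, and the study's methods name no molecular identifiers. The 2 h share with dCBP-30 thus overlapped the higher of the 2 background values, and converted positions per T>C read were 1.18 ± 0.04 there, 2.11 ± 0.17 with DMSO and 1.00 in both libraries without 4sU. This ratio can fall below 1, as for IL6ST (0.41 and 0.56 without 4sU), so the 2 deposited columns do not count the same reads and its background is not fixed. With the background share taken off, IL6R T>C reads differed by -4.06 (log2) after 2 h, -4.35 after 6 h and -2.35 after 24 h. The odds of a T>C read fell by 2.02 ± 0.18 (log2, adjusted p = 1.53e-08) at 2 h and by 0.67 ± 0.20 (adjusted p = 0.0366) at 6 h, where the shares were 8.20% ± 0.36 and 5.34% ± 0.90. This 6 h call was lost when any 1 library of that time other than dCBP-30 replicate 2 was left out (adjusted p up to 0.138). At 24 h the shares of 12.3% ± 1.00 and 9.58% ± 2.17 overlapped and did not differ by the test (adjusted p = 0.0758).

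**Figure D2:**
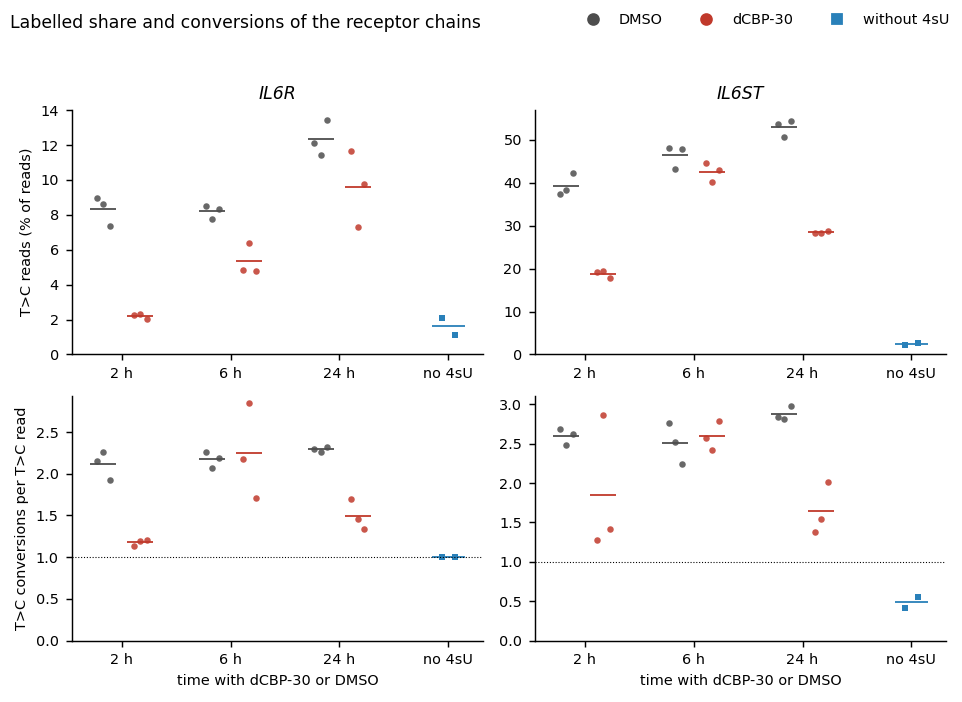
Labelled share (T>C reads in % of reads, top) and T>C conversions per T>C read (bottom, dotted line at 1) of IL6R and IL6ST in every library by time, with group means as bars. At 2 h the IL6R share with dCBP-30 (2.01% to 2.31%) lies near the higher of the libraries without 4sU (1.11% and 2.11%), whereas that of IL6ST (17.8% to 19.4%) stays above its background (2.11% and 2.68%).

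IL6ST, which encodes gp130, was read on a transcript model annotated for nonsense-mediated decay whose annotated 3′ UTR of 6808 bases spans several exons (within chr5:55936650-55968385, minus strand); the canonical transcript held 13194 of its 18263 reads. After 2 h its T>C reads were 43.6, 40.4 and 33.6 RPM with DMSO and 5.26, 3.36 and 5.38 RPM with dCBP-30. After 6 h they were 43.6, 41.2 and 45.7 RPM against 8.92, 4.93 and 5.94 RPM, and after 24 h 36.3, 42.3 and 44.6 RPM against 13.0, 10.7 and 12.3 RPM. The groups were apart at every time, and the dCBP-30 libraries of 24 h all lay above those of 2 h and 6 h. The log2 differences were -3.07 ± 0.22 (adjusted p = 4.21e-18), -2.72 ± 0.21 (adjusted p = 6.82e-17) and -1.77 ± 0.20 (adjusted p = 4.12e-11). On the canonical transcript the values were -3.51, -2.98 and -1.56.

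Unlike those of IL6R, the total reads of IL6ST were already lower at 2 h, with 117, 106 and 79.4 RPM for DMSO against 27.4, 17.4 and 30.2 RPM for dCBP-30. At 6 h they were 90.6, 95.4 and 95.5 RPM against 20.05, 12.3 and 13.8 RPM, and at 24 h 67.7, 83.7 and 82.0 RPM against 46.2, 37.9 and 42.8 RPM. None of these groups overlapped. Total reads fell by 2.01 ± 0.19 (adjusted p = 3.84e-08) at 2 h and by 2.61 ± 0.19 (adjusted p = 5.23e-11) at 6 h; at 24 h the difference of -0.88 ± 0.18 passed the adjusted p (1.94e-04) but not the 2-fold limit, and without TMM factors it was -0.36 (adjusted p = 0.0763). IL6ST was the only member called lower in total reads at 2 h, where 1.25% of all 12267 genes tested were, and IL6R and IL6ST were at 6 h (8.68%) and IL6R at 24 h (16.1%).

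IL6ST had a high labelled share. Under DMSO the group means ran from 39.3% ± 2.68 (2 h) over 46.4% ± 2.75 (6 h) to 52.8% ± 2.01 (24 h), between percentiles 97.7 and 98.4 of the genes with 100 or more reads in these groups, whereas IL6R lay between percentiles 49.4 and 53.3. With dCBP-30 the share of IL6ST was 18.8% ± 0.86, 42.5% ± 2.22 and 28.4% ± 0.26. It was lower than with DMSO at 2 h (log2 odds -1.48 ± 0.26, adjusted p = 3.32e-04) and at 24 h (-1.50 ± 0.25, adjusted p = 1.65e-04), while the groups overlapped at 6 h (-0.22 ± 0.26, adjusted p = 0.697). The share was thus called lower for IL6R and IL6ST at 2 h, IL6R at 6 h, and IL6ST and JAK1 at 24 h, where 5.13%, 6.86% and 25.6% of all genes were, and higher for no member (1.00%, 0.208% and 0.208%). Converted positions per T>C read of IL6ST at 24 h were 1.65 ± 0.33 with dCBP-30 and 2.88 ± 0.09 with DMSO, and those of IL6R 1.50 ± 0.18 and 2.29 ± 0.03; their part in the 24 h differences was not tested.

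The change of a gene at 6 or 24 h was compared with its own change at 2 h, all such comparisons sharing the libraries of 2 h. IL6R was the only member whose T>C change at 6 h differed from that at 2 h (-1.92 ± 0.29, adjusted p = 2.19e-06), in a direction in which 7.32% of all genes did, with 0.684% in the other. With the background taken off this difference shrank to -0.30 (adjusted p = 0.765). Its total change at 6 h differed from that at 2 h by -3.21 ± 0.20 (log2, adjusted p = 8.35e-12) and that at 24 h by -1.67 ± 0.19 (adjusted p = 1.49e-07), directions in which 10.6% and 22.7% of genes differed. IL6ST went the other way by 24 h, its change being 1.30 ± 0.28 less negative in T>C reads than at 2 h (adjusted p = 3.08e-04; 3.05% of genes moved upwards and 22.8% downwards) and 1.13 ± 0.26 less negative in total reads (adjusted p = 9.60e-04; 18.4%).

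**Figure D3:**
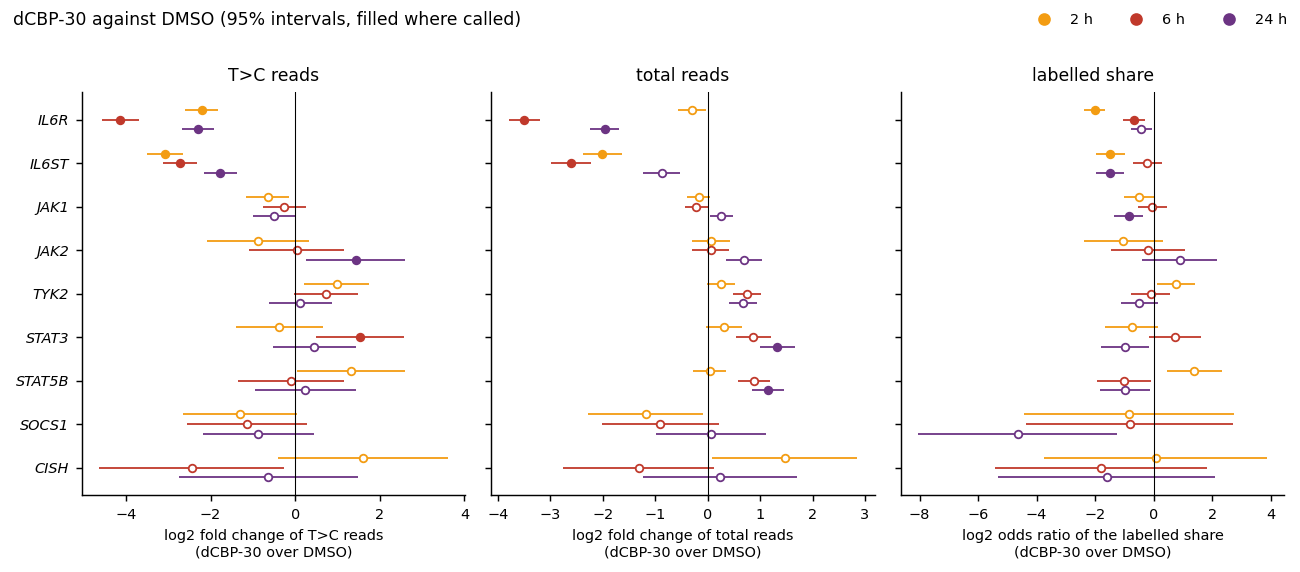
Log2 fold change of T>C reads and of total reads and log2 odds ratio of the labelled share, dCBP-30 over DMSO (horizontal axes), for the 9 tested genes at 2, 6 and 24 h, with 95% intervals and filled points where called. IL6R is lower in T>C reads at 2 h (-2.21) with a smaller difference in total reads (-0.29), IL6ST is lower in both, and STAT3 and STAT5B are higher in total reads at 24 h (1.33 and 1.15).

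Among the kinases, none was called lower in T>C or total reads at any time. The transcript models used for JAK1, TYK2 and STAT5B were, like that of IL6ST, annotated for nonsense-mediated decay. Their canonical transcripts held 21812 reads against 40054 for JAK1, 44913 against 45385 for TYK2 and 6903 against 7014 for STAT5B. JAK1, the kinase tied most closely to gp130, had T>C reads of 12.3, 9.73 and 8.97 RPM with DMSO and 6.82, 5.87 and 7.01 RPM with dCBP-30 at 2 h. These groups did not overlap, but the difference of -0.65 (95% interval -1.17 to -0.14) was not called (adjusted p = 0.111). At 6 h the difference was -0.25 (-0.76 to 0.26) and at 24 h -0.51 (-1.004 to -0.01), neither of them called. Its total reads differed by -0.17, -0.22 and 0.26, of which the last passed the adjusted p (0.0478) at 1.20-fold. It no longer did with a replicate block (0.0585), on the canonical transcript (0.0718), with summed transcripts (0.0825), without the filter (0.0972) or without any 1 library of 24 h (adjusted p up to 0.151). Its labelled share at 24 h was lower with dCBP-30, 6.13% ± 1.43 against 10.4% ± 0.48 (log2 odds -0.86 ± 0.25, adjusted p = 0.0149). This call was lost on the canonical transcript (adjusted p = 0.128) and without dCBP-30 replicate 2 of 24 h (adjusted p = 0.0899), and converted positions per T>C read were 1.14 ± 0.21 against 2.23 ± 0.47.

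JAK2 lay lower, at 6 to 68 T>C reads in a labelled library. At 24 h it had 1.68, 0.775 and 0.435 T>C RPM with DMSO and 1.42, 2.81 and 3.65 RPM with dCBP-30. The groups overlapped, and the call of a rise of 1.43 ± 0.60 stood at an adjusted p of 0.0498 and was lost without replicate 2 or 3 of either group (adjusted p up to 0.210). Total reads of JAK2 at 24 h were 12.2, 10.2 and 11.2 RPM against 18.8, 18.3 and 17.4 RPM, apart and 0.69 ± 0.18 higher (adjusted p = 0.00180), under the 2-fold limit. The 3′ UTR of JAK2 overlaps INSL6 on the opposite strand, which held 18 reads in all libraries.

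TYK2, which serves interferon and IL-12 family receptors as well, had T>C reads of 2.24, 2.61 and 4.26 RPM with DMSO and 6.65, 4.29 and 7.07 RPM with dCBP-30 at 2 h. The libraries did not overlap, with a difference of 0.98 (0.22 to 1.74) that was not called (adjusted p = 0.104). Its total reads were 122, 117 and 119 RPM against 181, 184 and 238 RPM at 6 h and 134, 110 and 128 RPM against 195, 209 and 188 RPM at 24 h. Both differences, 0.75 ± 0.14 (adjusted p = 1.07e-04) and 0.67 ± 0.14 (adjusted p = 1.94e-04), passed the adjusted p below 2-fold, and without TMM factors they were 1.07 and 1.19 and were called. The labelled share of TYK2 was the lowest of the kinases, between 2.36% and 4.63% in the 6 group means.

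The STAT genes rose in total reads at 24 h, a time at which their T>C reads were not called. Total reads of STAT3, the main STAT of gp130, were 48.1, 39.6 and 41.3 RPM with DMSO and 58.6, 75.6 and 101 RPM with dCBP-30 at 6 h, and 52.7, 50.3 and 47.5 RPM against 119, 129 and 130 RPM at 24 h. The groups were apart at both times. The 6 h difference of 0.87 ± 0.17 (adjusted p = 2.38e-04) was under 2-fold, and at 24 h total reads rose by 1.33 ± 0.17 (adjusted p = 3.20e-07). STAT5B, a STAT used by many cytokine and hormone receptors, was at 16.7, 13.4 and 15.0 RPM against 27.9, 28.5 and 26.7 RPM at 6 h and at 16.3, 17.6 and 17.2 RPM against 42.0, 39.5 and 32.0 RPM at 24 h. It too was apart, by 0.88 ± 0.16 (adjusted p = 8.48e-05) at 6 h, and rose by 1.15 ± 0.16 (adjusted p = 8.03e-07) at 24 h. These were the only members called higher in total reads at 24 h, where 15.0% of all genes were, and none was at 2 h (0.457%) or 6 h (7.47%). At an adjusted p under 0.05 without the 2-fold limit, TYK2, STAT3 and STAT5B were higher at 6 h, as 18.8% of genes were, and these with JAK1 and JAK2 at 24 h, as 28.7% were. The total change of STAT5B at 6 h differed from that at 2 h by 0.84 (5.11% of genes in that direction). The total change at 24 h differed from that at 2 h for STAT3 by 1.02 ± 0.24 (adjusted p = 0.00139) and for STAT5B by 1.11 ± 0.22 (adjusted p = 2.58e-04).

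**Figure D4:**
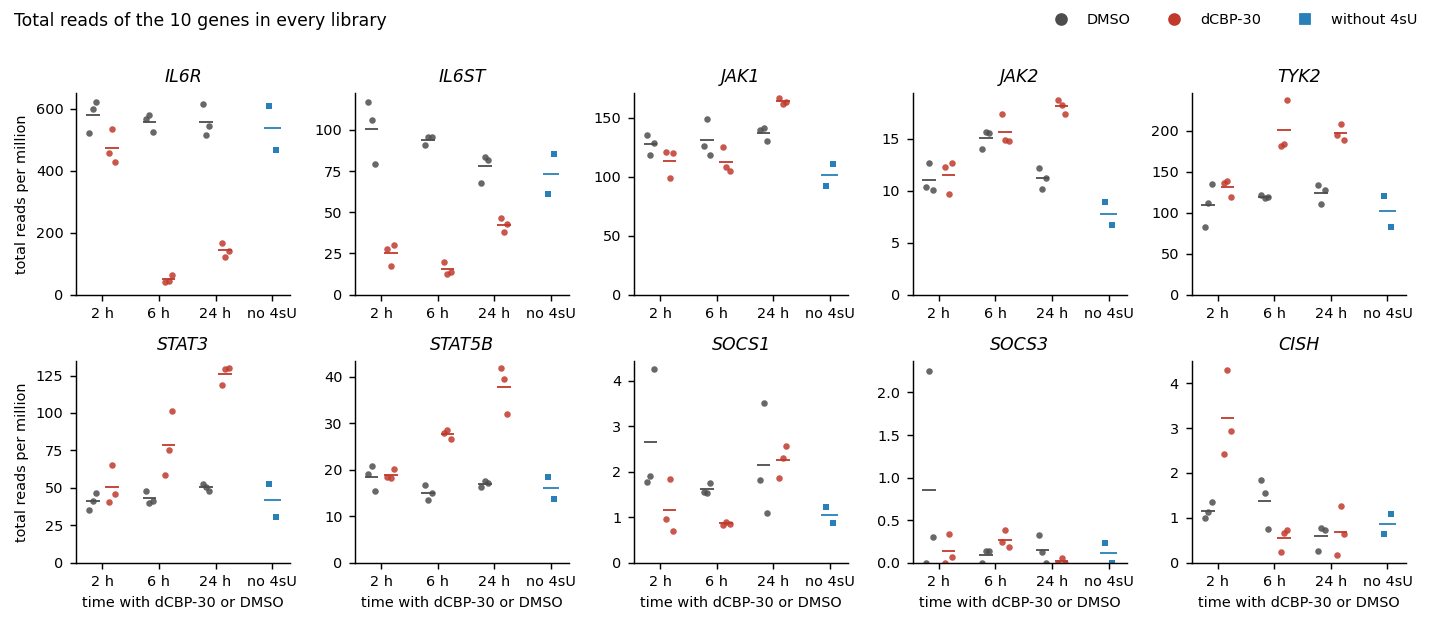
Total reads in RPM (vertical axes, each from 0) of the 10 genes in every library by time, for DMSO, dCBP-30 and the libraries without 4sU, with group means as bars. IL6R with dCBP-30 drops between 2 h (474 on average) and 6 h (49.2), and STAT3 (126 against 50.2) and STAT5B (37.8 against 17.01) lie above DMSO in all libraries of 24 h.

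T>C reads of STAT3 at 6 h were 1.77, 0.737 and 0.746 RPM with DMSO and 2.33, 3.10 and 3.92 RPM with dCBP-30. They did not overlap and rose by 1.52 ± 0.53 (adjusted p = 0.0271), but this call rested on 11 to 64 T>C reads a library and was lost without replicate 2 or 3 of either group (adjusted p up to 0.119). At 24 h they were 3.11, 2.44 and 2.32 RPM against 2.57, 2.48 and 5.74 RPM, which overlap (0.45, -0.52 to 1.43, adjusted p = 0.509). The labelled share of STAT3 at 24 h was 5.21% ± 0.60 with DMSO and 2.84% ± 1.38 with dCBP-30, lower in all libraries but not called (adjusted p = 0.0818). STAT5B had 7 to 43 T>C reads a library. At 2 h it stood at 1.08, 0.564 and 0.523 RPM against 1.55, 1.58 and 2.31 RPM, above DMSO in every dCBP-30 library but not called (1.33, 0.05 to 2.61, adjusted p = 0.222). Its labelled share at 2 h was 3.93% ± 1.54 and 9.57% ± 1.70 (adjusted p = 0.0943), a difference that limma on the log2 odds called (adjusted p = 0.0469).

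The inhibitors had few reads. SOCS1 and CISH, which the STATs induce and which in turn block JAK signalling, had 532 and 367 reads in all 20 libraries, and SOCS3, the inhibitor that binds gp130, had 72. SOCS3 counts ranged from 0 to 32 total reads a library, and 32 of the 72 came from DMSO replicate 2 of 2 h. In the libraries with 0 reads, a count of 0 allows a level of up to 3 reads, or 0.164 RPM in dCBP-30 replicate 1 of 24 h. Total reads of SOCS1 at 2 h were 23, 27 and 57 with DMSO and 11, 28 and 11 with dCBP-30, which overlap (-1.18, -2.28 to -0.08, adjusted p = 0.295). Most reads of SOCS1 were T>C reads at 2 h and 24 h with DMSO, with shares of 90.0% ± 6.92 and 95.2% ± 8.25, and at 24 h with dCBP-30 the share was 49.0% ± 9.48, below every DMSO library but not called (adjusted p = 0.0503). CISH had 13, 16 and 18 total reads with DMSO and 28, 65 and 47 with dCBP-30 at 2 h, and 26, 23 and 11 against 4, 12 and 12 at 6 h. No difference of CISH was called by edgeR, although DESeq2 called its T>C difference at 6 h (-2.49, adjusted p = 0.0468).

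The promoters of these genes were searched for the letters TTCNNNGAA, the spacing that STAT dimers prefer, which read the same on both strands. All 10 genes matched RefSeq promoters (GRCh38.p14, 250 bases before to 50 after a start), 16 in all. CISH held 4 matches in its 1 promoter and the other 9 genes none, while 7.66% of 35116 RefSeq promoters held at least 1. The 4 stretches of the CISH promoter are shown because CISH is a textbook STAT5 target; the matching letters are in capitals, and all lie on the minus strand of chromosome 3, at chr3:50611998-50612024, chr3:50611987-50612013, chr3:50611886-50611912 and chr3:50611869-50611895.
CISH 241 bases before the start: cgccccgttTTCCTGGAAagttcttgg
CISH 230 bases before the start: cctggaaagTTCTTGGAAatctgtcaa
CISH 129 bases before the start: agcccgcggTTCTAGGAAgacgctgct
CISH 112 bases before the start: agacgctgcTTCCGGGAAgggctggaa
A match of letters is a description of the sequence, and these libraries do not measure binding there.

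Across the 18 labelled libraries the T>C levels of IL6R and IL6ST ran together (Pearson r = 0.88 on log2 RPM, points sharing libraries and treatment). For members with a mean of 50 or more T>C reads, the most similar patterns were sought among all genes tested in T>C reads. Most like IL6R were C15orf39 (r = 0.979) and DEPTOR (0.978), and most like IL6ST were RAB30 (0.989) and DUSP4 (0.987). JAK1 was most like PAFAH1B1 (0.921) and TYK2 most like ACAA1 (0.847). TYK2 varied inversely with IL6R (r = -0.42) and IL6ST (-0.54).

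Among the STAT3 response genes most of those tested were called lower. Of 18 genes known to respond to STAT3, 14 were tested in T>C reads, and 9, 11 and 9 were called lower at 2, 6 and 24 h (7.14%, 17.1% and 31.2% of all genes), with medians of -2.08, -3.18 and -2.34. This list, like the other lists of related genes, was chosen with earlier results of these data known. The part of STAT3 in these differences was not tested. MYC, a driver of growth, stood at -6.29, -6.54 and -6.81 (log2), the kinase PIM1 at -2.96, -3.26 and -3.03, and BCL2L1, which protects from apoptosis, at -3.48, -3.37 and -2.39. PRDM1, the regulator of plasma cell identity, stood at -3.73, -4.47 and -3.40, the transcription factor NFIL3 at -3.47, -3.10 and -3.17, and the cyclin gene CCND2 at -3.12, -5.22 and -2.67. CCND1, another cyclin gene, had T>C reads of 168, 216 and 173 with DMSO against 0, 0 and 6 with dCBP-30 at 6 h, and 285, 276 and 317 against 2, 0 and 0 at 24 h. MCL1, another survival factor, was called at 2 and 6 h (-1.42 and -1.44) but not at 24 h (-0.51). BCL6, a repressor of plasma cell differentiation, was the one called higher in T>C reads, at 6 h, with 8, 14 and 11 T>C reads against 0 in each DMSO library, at least 9.44-fold over a floor of 3 reads in the group. The DMSO libraries of other times were not at 0. BCL6 had 7, 4 and 4 T>C reads with DMSO against 6, 0 and 5 with dCBP-30 at 2 h. At 24 h it had 6, 12 and 12 against 0, 6 and 7. In total reads the number called lower was 5 after 2 h, 10 after 6 h and 8 after 24 h (1.25%, 8.68% and 16.1% of all genes), while BCL6 was called higher at 6 h and CEBPD, with 101 reads in all 20 libraries, at 6 and 24 h. PRDM1 stands in this list and in that of plasma cell markers, of which all 9 tested were lower in T>C reads at the 3 times, with medians of -3.19, -4.32 and -3.84.

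**Figure D5:**
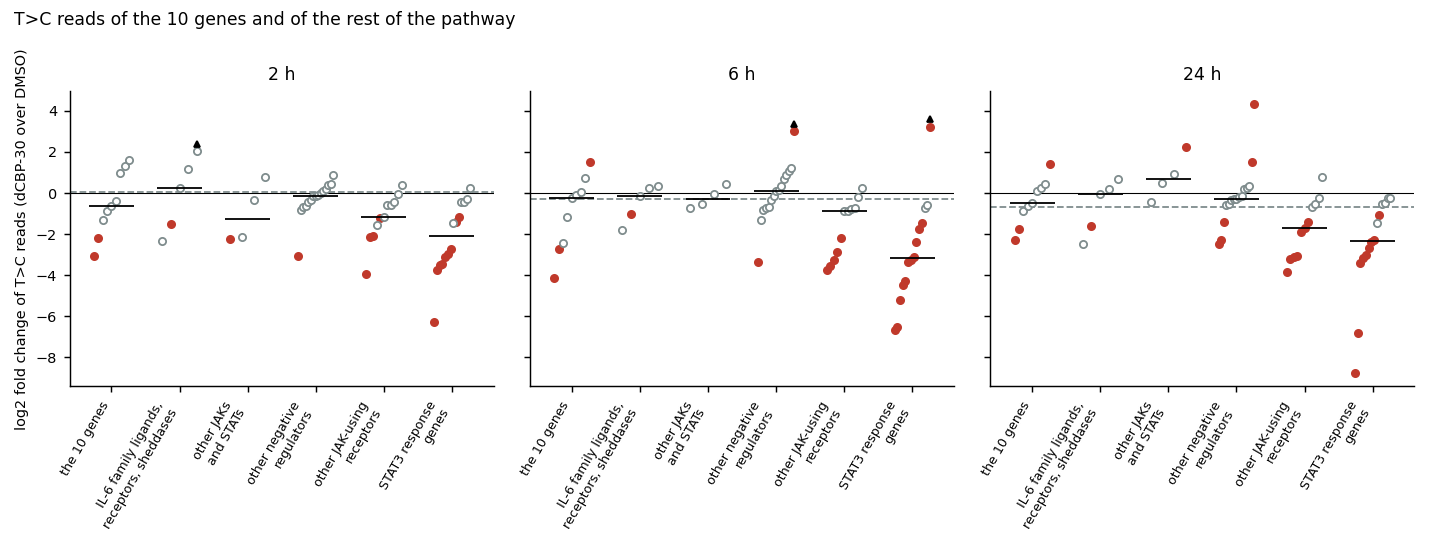
Log2 fold change of T>C reads (dCBP-30 over DMSO, vertical axis) of the tested genes of 6 lists at 2, 6 and 24 h; filled points were called, black bars are list medians, the dashed line is the median of all genes, and triangles mark genes with 0 T>C reads under DMSO, drawn at a lower bound. Of the 6 lists drawn the STAT3 response genes lie lowest, with medians of -2.08, -3.18 and -2.34, and other JAK-using receptors have medians of -1.17, -0.87 and -1.69.

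Other receptors that signal through JAKs were lower or not called in T>C reads. Of 11 tested in T>C reads, the number called lower was 4 after 2 h, 5 after 6 h and 7 after 24 h, and none was called higher. Of all genes 7.14%, 17.1% and 31.2% were called lower and 1.64%, 2.36% and 2.18% higher. In total reads 14 were tested, and 1, 5 and 5 were called lower at the 3 times (1.25%, 8.68% and 16.1% of all genes). IL13RA1 was called higher in total reads at 6 and 24 h, with 339 reads in all 20 libraries, and the IL-10 receptor chain IL10RB at 24 h (1.12). Of all genes 7.47% and 15.0% were called higher at these 2 times. IL10RA, the ligand-binding chain for IL-10, stood at -3.92, -3.76 and -1.42 (log2) and IFNAR2, of the type I interferon receptor, at -2.12, -2.86 and -1.69. CSF2RB, the common chain for IL-3, IL-5 and GM-CSF, stood at -2.10, -3.56 and -3.13. The other chain of the type I interferon receptor, IFNAR1, was called at 2 h (-1.23). IL21R was called at 6 and 24 h (-3.26 and -3.05), and the largest differences at 24 h were those of IL15RA (-3.86) and the erythropoietin receptor EPOR (-3.22). Of 6 further JAK and STAT genes, 4 were tested in T>C reads. STAT2 was called lower at 2 h (-2.24), where 7.14% of all genes were. STAT6 was called higher at 24 h (2.24), where 2.18% of all genes were. Of 15 further negative regulators tested in T>C reads, 1, 1 and 3 were called lower at 2, 6 and 24 h (7.14%, 17.1% and 31.2% of all genes). At these times 0, 1 and 2 were called higher (1.64%, 2.36% and 2.18% of all genes). PTPN6 (SHP-1), a phosphatase that dampens JAK signalling, was called lower at all 3 times (-3.06, -3.34 and -2.48). At 24 h the phosphatase PTPN2 (-2.30) and SOCS4 (-1.40) were lower too, and PIAS3, an inhibitor of STAT3, was higher (1.53). The ubiquitin ligase CBLB was called higher at 6 h (6, 5 and 17 T>C reads against 0 in each DMSO library, at least 8.01-fold over the same floor) and at 24 h (26, 4 and 25 against 0, 2 and 0), and its total reads at 24 h were 102, 94 and 164 against 1, 5 and 1 with DMSO. Of 16 ligands, receptors and sheddases of the IL-6 family, 5 had enough T>C reads to test. ADAM10, a protease that sheds membrane proteins including IL6R, was the one called lower in T>C reads, at -1.51, -1.004 and -1.59. Of all genes 7.14%, 17.1% and 31.2% were called lower at the 3 times. In total reads 7 of the 16 were tested. IL27RA was called lower at 6 h (-1.33) and 24 h (-1.79) and ADAM10 at 24 h (-1.11), where 8.68% and 16.1% of all genes were. IL11RA was called higher in total reads at 24 h (1.61), as 15.0% of all genes were. IL6 itself had 3 reads in all 20 libraries.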

How the data were processed

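The files hold, per library and transcript, the deposited counts of total reads and of T>C reads over annotated 3′ UTRs. Per the study's methods the authors aligned SLAM-seq reads to hg38 with Slamdunk, removed multimapping reads and collapsed counts by transcript; the submitters' processing notes also name Trim Galore and DESeq, without versions. Drosophila spike-in reads were not used here. Every library was sampled from MM1.S cells, and groups were taken from the sample labels.

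Of 97466 transcript rows, 89088 (91.4%) matched the annotation used here, and the unmatched rows held 0.0789% to 0.199% of reads. Each of 19593 genes was represented by its transcript with most reads. Genes with low counts were left out with filterByExpr (minimum count 10). One robust quasi-likelihood model (edgeR 4.0.16 in R 4.3.3) was fitted over the 18 labelled libraries with 1 mean per group, for T>C reads and for total reads, with total library sizes and TMM factors from total reads. The labelled share was tested as T>C against other reads of each library. The standard error (SE) is the log2 difference divided by the square root of its F value, and 95% intervals of log2 differences use the normal quantile of that SE. Later changes were set against that at 2 h by interaction terms. Alternatives used DESeq2 1.42.0, limma 3.58.1, other scalings, no filter, background subtraction (total reads times the share pooled over both libraries without 4sU, taken from T>C reads), summed transcripts, each time point alone, a replicate block and each library left out. The Ensembl canonical transcript was an alternative chosen after seeing the data. Tables were made with Python 3.11.15, pandas 2.3.3, numpy 2.4.6 and scipy 1.17.1. The model was tested on simulated data.

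The 10 genes and the lists of related genes were chosen with earlier results of these data known. From each list, genes called in T>C reads were named, at most the 4 largest where there were more, besides genes that account for a count of 5 or fewer. PIM1, MCL1 and the plasma cell counts were added after their values were seen. Replicates of a group differed beyond sampling noise (chi-square 8.54 to 50.1 per degree of freedom over 19 pairs), so none was counted as a copy. Library depth of 12439665 to 18727385 reads limits the precision of genes with few T>C reads.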

Additional observations from a re-analysis of the deposited data

Results flagged for a closer look

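For 6 of the 9 genes tested the change at a later time differed from the gene's own change at 2 h by edgeR's interaction test at an adjusted p under 0.05. Many genes did so: in T>C reads 7.32% lower and 0.684% higher at 6 h and 22.8% and 3.05% at 24 h, and in total reads 10.6% and 5.11% at 6 h and 22.7% and 18.4% at 24 h. All these differences share the libraries of 2 h and are on the log2 scale. At 6 h IL6R differed by -1.92 in T>C reads and by -3.21 in total reads, and STAT5B by 0.84 in total reads. At 24 h IL6ST differed by 1.30 and JAK2 by 2.31 in T>C reads. In total reads at 24 h IL6R differed by -1.67, IL6ST by 1.13, JAK1 by 0.43, STAT3 by 1.02 and STAT5B by 1.11. The weakest were those of JAK2 (adjusted p = 0.0386) and JAK1 (adjusted p = 0.0318). That of JAK2 was lost with background subtracted (adjusted p = 0.0613) or summed transcripts (0.109). That of JAK1 was lost without the filter (adjusted p = 0.0642), on the canonical transcript (0.104) or with summed transcripts (0.105). With 1 library left out, the adjusted p reached 0.137 for JAK2 and 0.0961 for JAK1.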

How the results depend on the processing

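The counts of members lower in T>C or total reads were the same in every alternative, except that DESeq2 added CISH to those lower in T>C reads at 6 h (3 in all). Higher T>C reads were called for 1 member at 2 h with summed transcripts, at 6 h for 2 when scaled by T>C reads or without TMM factors and for 0 with background subtracted or summed transcripts, and at 24 h for 0 with no filter, background subtracted, summed transcripts, the canonical transcript or each time point alone. Without TMM factors 3 members were higher in total reads at 6 h and 4 at 24 h. The share was higher for 1 member (STAT5B) at 2 h with summed transcripts and with limma, blocked or not, lower for 0 at 6 h in the same fits, and lower for 1 (IL6ST) at 24 h with summed or canonical transcripts. The T>C change at 6 h differed from that at 2 h for 2 members in DESeq2 and for 0 with background subtracted, and that at 24 h for 1 with summed transcripts. The one reversal was IL6R, whose T>C change at 24 h differed from that at 2 h by 1.70 (adjusted p = 4.92e-04) with background subtracted, against -0.08. The sign also changed for 66 estimates that passed in neither fit. The cause of these shifts was not tested.

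With 1 library left out, the counts ranged from 0 to 1 for T>C reads called higher at 6 h and likewise at 24 h, from 0 to 1 for higher total reads at 6 h, from 0 to 1 for a lower share at 6 h, from 1 to 4 for a lower share at 24 h, and from 1 to 2 for a T>C change at 24 h that differed from 2 h. Same-numbered libraries did not deviate together (r from -0.105 to 0.030 over 9 pairs). Whether the numbers pair the samples cannot be told from this, since paired samples need not deviate together. With the replicate block no count for T>C or total reads moved, and IL6R T>C reads stood at -2.21, -4.12 and -2.30. Few T>C reads limit JAK2, STAT3, STAT5B and the inhibitors.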
